A study of Mus musculus with 3 samples.

Results

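Mouse flexor digitorum longus (FDL) tendon was profiled by single-cell RNA sequencing (scRNAseq). Of 19709 kept cells, 186 were lymphocytes with CD3 transcripts or those of Nkg7 and Il2rb, and with few or none of the gamma delta receptor. They were chosen from raw counts of unique molecular identifiers (UMIs), each of which marks 1 captured transcript. A kept cell had 1000 to 5000 genes and at most 10% mitochondrial UMIs. A lymphocyte then had at least 3 UMIs of Cd3d, Cd3e and Cd3g in sum, here called the CD3 route, or at least 3 UMIs of Nkg7 and Il2rb in sum. Cells with more than 3 UMIs of the macrophage genes C1qa, C1qb and C1qc, with 10 or more of the tenocyte genes Tnmd, Fmod, Kera and Cilp2, or with more than 1 of the gamma delta receptor genes Trdc and Tcrg-C1 were left out. The levels of all these genes chose the cells, so they are given as a description only.

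Each of the 3 libraries pooled 16 FDL tendons from C57BL/6J background mice of both sexes. 6 M WT tendons came from Scx-Cre-; DTR F/+ mice that received 5 daily injections of diphtheria toxin (DT), and 6 M DTR tendons from Scx-Cre+; DTR F/+ mice that received the same DT, while 21 M B6 tendons came from untreated C57/Bl6 mice aged 21 months. The Scx promoter drives Cre in DTR mice, so the DT receptor appears in the Scleraxis lineage, which DT then kills. WT mice carry the receptor allele and the DT but no Cre. By the methods of the study, mice were 3 months old at injection and 6 months old at harvest, whereas the labels give an age of 3 months for both of these libraries. WT tendons were digested for 120 min and the other tendons for 90 min, so that digestion time, and for 21 M B6 also DT and genotype, cannot be told apart from the group. With 1 library per group no difference was tested, and every range in brackets below is an exact 95% interval that covers counting error only. The libraries are called WT, DTR and B6 below. The kept cells numbered 8357 in WT, 6554 in DTR and 4798 in B6, and the lymphocytes 41, 108 and 37. Their UMIs summed to 419446, 942477 and 424844, with a median of 9734, 8162 and 11205 UMIs and of 2727, 2455 and 2748 genes per lymphocyte.

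T cells of the alpha beta lineage recognise peptides through a receptor of an alpha chain (constant part Trac) and a beta chain (Trbc1 or Trbc2), which signals through the CD3 proteins. CD4 marks the helper branch, CD8 the killer branch, and FOXP3 is the transcription factor of regulatory T cells. Natural killer (NK) cells lack a rearranged receptor and kill through granzymes. Group 2 innate lymphoid cells (ILC2) also lack it and release interleukin 5 and interleukin 13 under the transcription factor GATA3.

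The name T and NK cells was first set against marker genes. Trac was carried, that is detected with at least 1 UMI, by 128 of the 186 lymphocytes, and a CD3 gene by 155. All but 5 cells had a UMI of a CD3 gene, Trac, Trbc1 or Trbc2. Trbc1 and Trbc2 are near-identical genes between which reads can be misassigned, and 67 cells carried both, 25 only Trbc1 and 79 only Trbc2. Of 16 NK genes examined, 13, 16 and 8 had a UMI in the lymphocytes of WT, DTR and B6, and they summed to 346, 1004 and 247 CPM (UMIs per 1000000 UMIs of the lymphocytes), led by Klrk1, which gamma delta cells also held. Ncr1, the NK activating receptor NKp46, was carried by 1, 2 and 0 cells of WT, DTR and B6, and Klrb1c (NK1.1) by 1, 3 and 0. Klre1 was carried by 3, 13 and 2 cells and the NK transcription factor Eomes by 1, 7 and 1. Of the 31 cells without a CD3 UMI, 23 had no UMI of Ncr1, Klrb1c or Klre1, so the NK name is not kept and the cells are called lymphocytes here and their groups by the UMIs they carry. The 15 genes with the highest level in the lymphocytes relative to all other kept cells, among genes carried by at least 20% of them, were Themis, Cd6, Nkg7, Ms4a4b, Cd5, Fasl, Gm8369, Cd28, Trac, Cd4, Gata3, Tnfrsf18, Ctla4, Tnfrsf4 and Lck. They include Themis, Lck, Cd5 and Cd6 of T cell receptor signalling, the costimulatory receptors Cd28, Tnfrsf4 and Tnfrsf18 and the inhibitory receptor Ctla4. Their levels were pooled over libraries, of which DTR gave 108 of the 186 cells, and Nkg7 was used in the choice. Cd6 stood at 122, 184 and 23.5 CPM in WT, DTR and B6, and Gata3 at 322, 124 and 843 CPM. Both routes were open to the choice, and they differed between libraries. In WT 15 cells met the CD3 limit but not that of Nkg7 and Il2rb, 8 met the second but not the first and 18 met both. These numbers were 26, 21 and 61 in DTR and 7, 16 and 14 in B6. Values for the CD3 route below are from all cells that met the CD3 limit, which are 33 in WT, 87 in DTR and 21 in B6. At the edge of the choice, 2, 12 and 3 lymphocytes of the 3 libraries had a larger sum of exactly 3 UMIs, and 1, 4 and 3 cells just outside had a sum of 2 UMIs, all 8 of which carried the leukocyte gene Ptprc. The choice allowed 1 UMI of Trdc or Tcrg-C1, and 4, 7 and 7 lymphocytes of WT, DTR and B6 held 1. The 10 gamma delta genes examined summed to 117, 70.0 and 91.8 CPM in the lymphocytes, led by Trdv4 in WT and B6 and Il17a in DTR. In the gamma delta cells left out they summed to 4022, 4803 and 3341 CPM. Whether some lymphocytes are gamma delta cells with an undetected receptor was not tested.

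A few cells stood apart. 1 lymphocyte of DTR held 17668 haemoglobin UMIs, where the next highest in that library held 8. Another 2 lymphocytes of DTR held 1267 and 1160 UMIs of MHC class II genes and carried Flt3, a dendritic cell receptor, together with T cell receptor UMIs, whereas no other lymphocyte of any library held over 8. Whether these are single cells was not tested, and the DTR values of the haemoglobin genes, Cd74, Fcer1g, Zeb2 and Foxp3 are given with and without them. The 2 with class II UMIs had a median of 27288 UMIs, against 8162 over all lymphocytes of DTR. Libraries shared 76 (WT and DTR), 65 (WT and B6) and 61 (DTR and B6) cell barcodes, and no barcode was a lymphocyte in more than 1 library. Genes of other cell types were then summed. The 6 endothelial and mural genes stood at 157, 121 and 80.0 CPM in WT, DTR and B6. The 6 mast cell and granulocyte genes stood at 153, 37.1 and 137 CPM, led by Kit in each library. The 6 B cell genes stood at 19.1, 10.6 and 2.35 CPM. The 9 macrophage genes examined summed to 31.0 CPM in WT, 138 CPM in DTR and 40.0 CPM in B6, with Lyz2 the most abundant in each, and Cd79a, a B cell receptor subunit, was at 0 in all 3. The 10 tenocyte genes summed to 818, 1059 and 137 CPM, led by Dcn, and Kera was at 0 in all 3. The share of tenocyte-marked cells that carry a gene they should lack is given beside the main genes as the background from free RNA.

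The lymphocytes made up a larger share of DTR than of WT. They were 0.491% (0.352 to 0.665) of kept cells in WT, 1.65% (1.35 to 1.99) in DTR and 0.771% (0.544 to 1.06) in B6. The share in DTR was 3.36 times (2.32 to 4.94) that in WT, and that in B6 1.57 times (0.980 to 2.51), an interval that holds 1. Gamma delta receptor T cells, found by the same rule with at least 2 UMIs of Trdc and Tcrg-C1, numbered 85, 217 and 46, so that their share in DTR was 3.26 times (2.52 to 4.23) that in WT and in B6 0.943 times (0.644 to 1.36). The lymphocytes with at most 1 of those UMIs were accordingly 32.5% of both kinds together in WT, 33.2% in DTR and 44.6% (33.7 to 55.9) in B6. Tenocyte-marked cells, with at least 10 UMIs of the tenocyte genes Tnmd, Fmod, Kera and Cilp2, numbered 5352 in WT, 2831 in DTR and 1018 in B6, so that kept cells differed in makeup between libraries. Among kept cells that were not tenocyte-marked, the lymphocytes were 1.36% (0.981 to 1.85) in WT, 2.90% (2.39 to 3.49) in DTR and 0.979% (0.690 to 1.35) in B6, so that the order of WT and B6 turned with the denominator. Among cells with a Ptprc UMI they were 4.96% (3.58 to 6.67), 7.23% (5.97 to 8.67) and 6.21% (4.38 to 8.49), and these intervals overlap. All lymphocytes but 1, in B6, had a Ptprc UMI. The lymphocytes of B6 had a median of 7.31% mitochondrial UMIs, against 4.31% in WT and 4.00% in DTR, and a mitochondrial limit of 5% kept only 3 of the 37. At that limit the shares were 0.399%, 1.51% and 0.129%, so that B6 lay below WT. Sex composition also differed, and Xist UMIs without a Y-linked UMI marked 61.1%, 32.7% and 45.1% of kept cells. Among those cells the lymphocyte share was 0.607% (0.413 to 0.861) in WT, 1.82% (1.30 to 2.48) in DTR and 1.39% (0.937 to 1.97) in B6. Among cells with a Y-linked UMI and no Xist it was 0.301% (0.111 to 0.655), 1.35% (0.978 to 1.83) and 0.292% (0.0950 to 0.681), so that DTR lay above WT in both and B6 lay above WT only in the cells with Xist.

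**Figure D1:**
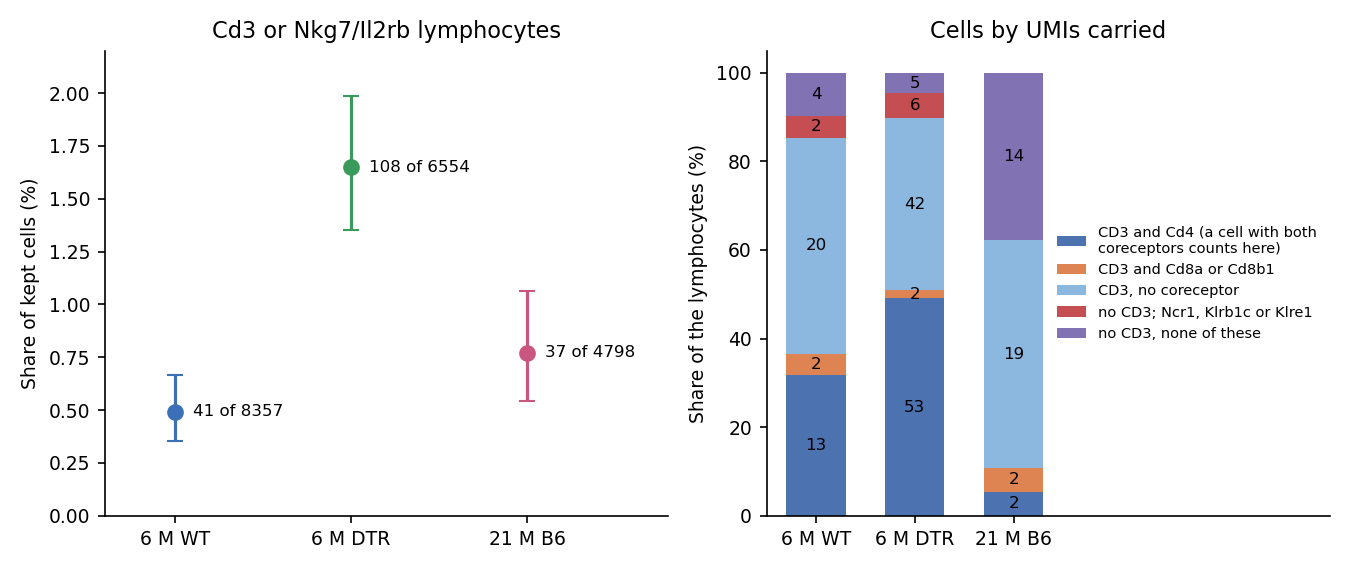
The left panel plots the lymphocytes as a percentage of kept cells in each library, with exact 95% counting intervals as bars, and the right panel splits the lymphocytes of each library by the UMIs they carry, with the number of cells in each block. The DTR share of 1.65% lies above both others, and 14 of 37 cells in B6 have no CD3 UMI against 6 of 41 in WT.

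Cd4, the helper coreceptor, differed between libraries. It was carried by 13 of 41 lymphocytes in WT, which is 31.7% (18.1 to 48.1), by 54 of 108 in DTR, which is 50.0% (40.2 to 59.8), and by 2 of 37 in B6, which is 5.41% (0.661 to 18.2). Its summed UMIs were 26, 146 and 2, or 62.0, 155 and 4.71 CPM. The DTR level was 2.499 times (1.64 to 3.95) that of WT. Tenocyte-marked cells, which should lack Cd4, carried it in 0.318%, 0.742% and 0.0982% of cases at median depths of 13184.5, 12840 and 11584.5 UMIs. After each lymphocyte was thinned to 2000 UMIs the shares were 9.76%, 28.7% and 2.70%, which keeps their order, with intervals of 2.72 to 23.1 in WT and 20.4 to 38.2 in DTR that overlap. Among lymphocytes of the CD3 route the unthinned shares were 39.4%, 56.3% and 9.52%, and among those with Xist and no Y-linked UMI 32.3%, 51.3% and 6.67%. Of the 69 carriers of Cd4, 63 also carried Trac, 62 carried Cxcr6, a chemokine receptor of tissue lymphocytes, and 32 carried Ctla4, an inhibitory receptor.

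The killer coreceptor was scarcely detected. Cd8a was carried by 1 lymphocyte of WT, with 3 UMIs, by 0 of 108 in DTR, which allows a share of up to 2.78%, and by 0 of 37 in B6, which allows up to 8.11%. Such limits are 3 cells of the total, whereas the exact 95% intervals drawn in the plot of carrying shares end at 3.36% and 9.49%. Its partner chain Cd8b1 was carried by 2, 3 and 2 cells with 8, 3 and 5 UMIs. Only 1 cell, in DTR, carried Cd4 together with a Cd8 gene. These counts are too low to order the libraries.

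Foxp3 was carried by 2 cells in WT, 4 in DTR and 2 in B6, that is 4.88% (0.596 to 16.5), 3.70% (1.02 to 9.21) and 5.41% (0.661 to 18.2), and by 0 tenocyte-marked cells of any library. The UMIs summed to 3, 11 and 3. Of the 4 carriers in DTR, 1 is a cell with class II UMIs described above, and without the unusual cells the DTR share was 2.86%. All 8 carriers also carried Il2ra, the high-affinity interleukin 2 receptor chain, 6 carried Ctla4, 4 carried Tnfrsf4 (OX40) and 3 carried Cd4. No difference in Foxp3 between libraries was detectable at this depth.

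Gzma, the granule protease granzyme A, came from a small and separate set of cells. It was carried by 1 of 41 lymphocytes in WT with 2 UMIs, by 6 of 108 in DTR with 186 UMIs, and by 0 of 37 in B6, which allows a share of up to 8.11%. The DTR share was 5.56% (2.07 to 11.7) before and after thinning, against 0.177% of tenocyte-marked cells in that library. All 7 carriers lacked a CD3 UMI and carried both the chemokine Ccl5 and the signalling adaptor Fcer1g, while 3 carried Ncr1 and 3 carried Klrb1c. Of 8 cells without a CD3 UMI that had a UMI of Ncr1, Klrb1c or Klre1, 2 were in WT, 6 in DTR and 0 in B6.

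Gata3, which directs type 2 lymphocytes, was ordered the opposite way to Cd4. It was carried by 24 of 41 lymphocytes in WT, which is 58.5% (42.1 to 73.7), by 40 of 108 in DTR, which is 37.0% (27.9 to 46.9), and by 26 of 37 in B6, which is 70.3% (53.0 to 84.1). Its level was 322 CPM in WT, 124 CPM in DTR and 843 CPM in B6, so that it was 0.386 times (0.299 to 0.498) the WT level in DTR and 2.62 times (2.14 to 3.22) in B6. Tenocyte-marked cells carried it in 0.392% and 0.424% of cases in WT and DTR and in none of 1018 in B6. Thinning gave 31.7%, 14.8% and 51.4%. Among lymphocytes of the CD3 route the shares were 54.5%, 34.5% and 47.6%, so that the B6 share no longer lay above that of WT there. In the wider set of cells with any CD3 UMI, Gata3 stood at 106 CPM in 35 cells of WT and 372 CPM in 23 cells of B6. These levels and the shares of the CD3 route are from different sets of cells, so their orders are not compared. The plot of carrying shares shows these genes side by side.

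**Figure D2:**
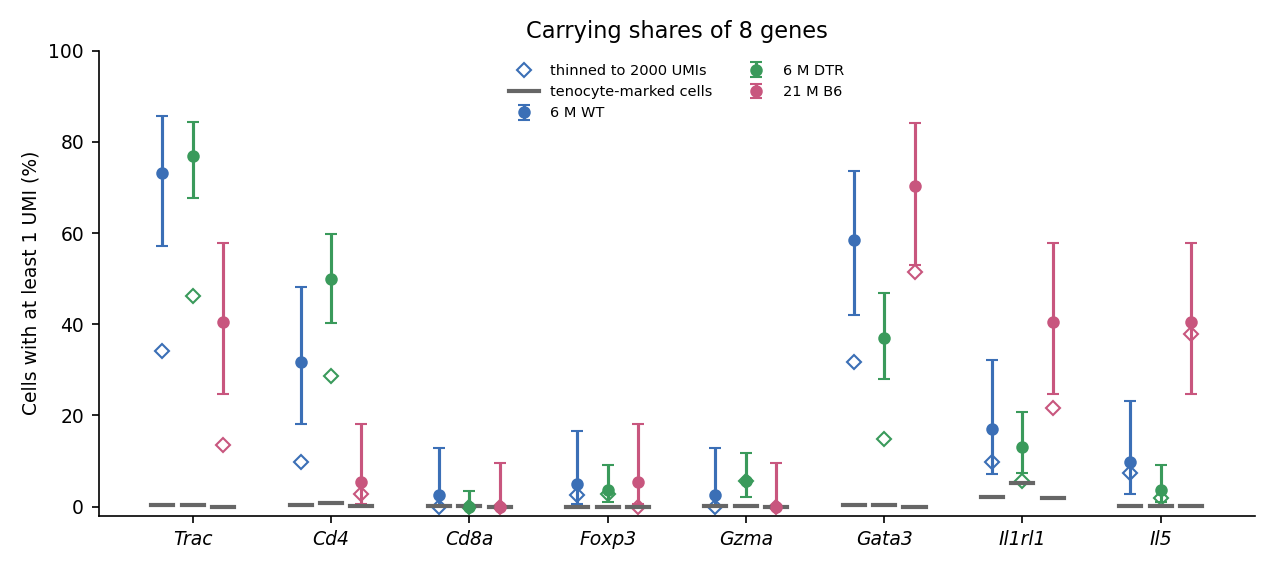
Each filled point is the percentage of lymphocytes of a library with at least 1 UMI of the gene, with its exact 95% counting interval, and open diamonds show the same cells thinned to 2000 UMIs. Grey dashes give the share among tenocyte-marked cells of the same library. Cd4 is highest in DTR and Gata3, Il1rl1 and Il5 are highest in B6.

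The lymphocytes without a CD3 UMI held Gata3, Il5 and Il13 at a higher level than those with one in each of the 3 libraries. They numbered 6 of 41 in WT, which is 14.6% (5.57 to 29.2), 11 of 108 in DTR, which is 10.2% (5.195 to 17.5), and 14 of 37 in B6, which is 37.8% (22.5 to 55.2). Because a cell without CD3 could enter only through Nkg7 and Il2rb, the level of those genes in it was set by the choice. Gata3 stood at 1397 CPM without and 106 CPM with a CD3 UMI in WT, 318 and 108 CPM in DTR and 1656 and 372 CPM in B6. Il5, the eosinophil growth factor, stood at 2565 and 0 CPM in WT, 526 and 20.7 CPM in DTR and 1579 and 714 CPM in B6. For Il13 the levels were 285 and 0 CPM, 304 and 2.30 CPM, and 225 and 48.3 CPM. The DTR levels without CD3 rest on few cells, since all 22 UMIs of Il13 were in 1 cell and 37 of the 38 UMIs of Il5 in 1 cell. The stem cell factor receptor Kit, the chemokine receptor Ccr8 and the amphiregulin gene Areg, an epidermal growth factor receptor ligand, were also higher without a CD3 UMI in each library. Conversely Trac stood at 0 CPM without and 341 CPM with a CD3 UMI in WT, 41.5 and 338 CPM in DTR and 19.3 and 175 CPM in B6. Over the libraries, to which B6 gave 14 of the 31 cells without CD3, Cd5 and Ctla4 were carried by 0 of the 31 cells against 69 and 45 of the 155. Rora, a further transcription factor of these cells, was carried by 30 of the 31 cells but also by 151 of the 155 cells with CD3.

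Within the cells without CD3 the libraries also differed. Gata3 was carried by 5 of 6 such cells in WT, 5 of 11 in DTR and 14 of 14 in B6, and Il5 by 4, 2 and 10 of them. The alarmin receptor Il1rl1 (ST2), through which interleukin 33 acts, was carried by 4, 1 and 11 of them, and the costimulatory receptor Icos by 5, 5 and 14. In DTR the level of Il1rl1 was 13.8 CPM without a CD3 UMI, which is 1 UMI, and 60.9 CPM with one, whereas WT stood at 670 and 28.6 CPM and B6 at 404 and 100.4 CPM. In DTR, by contrast, Ccl5 was carried by 7 of 11 cells at 12882 CPM, the signalling adaptor Tyrobp by 7 at 747 CPM and Gzma by 6 at 2574 CPM. A UMI of Ncr1, Klrb1c or Klre1 was found in 6 of the 11 cells of DTR and in none of the 14 cells of B6. Of the genes fixed as ILC2 markers (Gata3, Il1rl1, Rora, Il13 and Il5), the 14 cells of B6 carried Gata3 in 14, Rora in 14, Il1rl1 in 11, Il5 in 10 and Il13 in 5 cases. Of the same 14 cells, 10 carried Trbc1 and 6 carried Trbc2, and no name was given to the group.

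Il5 over all lymphocytes was carried by 4 of 41 cells in WT, 4 of 108 in DTR and 15 of 37 in B6, which is 40.5% (24.8 to 57.9), and thinning gave 7.32%, 1.85% and 37.8%. The UMIs summed to 180, 56 and 438, of which the highest cell held 104, 37 and 139. All 23 carriers carried Gata3 as well, and 5 carried Trac, all in B6. Il1rl1 was carried by 7, 14 and 15 cells, and 27 of those 36 carried Gata3. Tenocyte-marked cells carried Il1rl1 in 2.02%, 5.26% and 1.77% of cases. Il13 was carried by 3, 2 and 7 cells, and Il4 by 0, 2 and 1.

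CD3 cells without a Cd4, Cd8a or Cd8b1 UMI were the largest group in WT and B6, with 20 of 41 and 19 of 37. In DTR they numbered 42 of 108. Carriers of Cd4 held a median of 1, 2 and 1 Cd4 UMIs in WT, DTR and B6. Cd4 may therefore go undetected in some of the cells without a coreceptor UMI. Trac was carried by 58 of these 81 cells at 192 CPM, against 62 of the 68 CD3 cells with Cd4 at 488 CPM. Zbtb16, the transcription factor PLZF of innate-like T cells, was carried by 35 of the 81 cells and by 1 of the 68. Over all lymphocytes the Zbtb16 share was 19.5%, 15.7% and 35.1%, against 22.01%, 21.9% and 18.5% of the deeper tenocyte-marked cells. Its level was 62.0, 45.6 and 58.8 CPM in the lymphocytes and 21.2, 20.7 and 19.9 CPM in tenocyte-marked cells, so the order of the shares goes against that of the levels in WT and DTR and is not read. Median depth was 9972, 9267 and 9965 UMIs in the cells without a coreceptor and 8314, 7141 and 10950.5 in those with Cd4. Cd28 (66 of 81 and 63 of 68), Il7r (78 and 50) and Icos (70 and 58) were common to both. Cd5, an inhibitory receptor of T cells, was carried by 19 of the 81 and 48 of the 68, and Cd6 by 26 and 51.

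**Figure D3:**
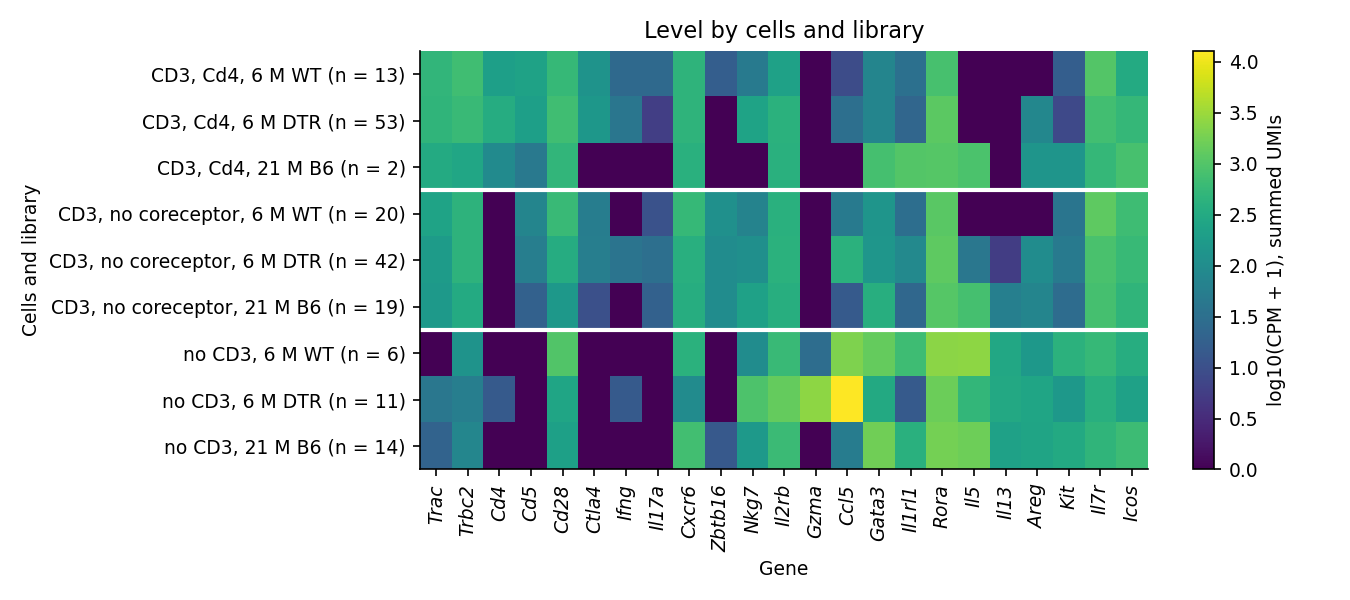
Rows are 3 kinds of lymphocyte in each library with their number of cells, columns are genes, and the colour is log10 of CPM + 1 from summed UMIs, with the darkest colour at 0. Gata3, Il5 and Kit are brightest in the cells without CD3 of WT and B6, and Gzma and Ccl5 in those of DTR. The row for Cd4 cells of B6 rests on 2 cells.

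Cytokines outside type 2 came next. Ifng, the type 1 cytokine, was carried by 1 of 41 lymphocytes in WT, 14 of 108 in DTR, which is 13.0% (7.27 to 20.8), and 0 of 37 in B6, which allows up to 8.11%. Of its 15 carriers 9 carried Cd4. After thinning, the DTR share was 6.48% and no cell of the other libraries carried it. Il17a was carried by 2, 9 and 1 cells, 10 of the 12 with Trac. Tnf was carried by 10 of 41, 27 of 108 and 9 of 37 cells, and by 10.7%, 9.11% and 4.42% of tenocyte-marked cells. Il10 was found in 4 cells, all of DTR. Cxcr6 was carried by 35, 86 and 31 cells, which is 85.4%, 79.6% and 83.8%, at 496, 397 and 490 CPM. Its background in tenocyte-marked cells was 0.318%, 0.424% and 0.295%. Ccr7, the chemokine receptor that guides cells to lymph nodes, was carried by 14, 24 and 11 cells.

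The gamma delta receptor T cells gave the nearest values for comparison, all without a test. Cd28 stood at 675, 493 and 200 CPM in the lymphocytes of WT, DTR and B6 and at 96.9, 76.7 and 69.6 CPM in the gamma delta cells. Cd4 was carried by 0 of 85, 10 of 217 and 0 of 46 gamma delta cells, and Il5 by 0, 1 and 0. Gata3 was carried by 42.4%, 31.8% and 37.0% of gamma delta cells against 58.5%, 37.0% and 70.3% of the lymphocytes. Il17a was carried by 18.8%, 33.6% and 4.35% of gamma delta cells against 4.88%, 8.33% and 2.70% of the lymphocytes. Cxcr6 was common in both, at 92.9%, 94.0% and 95.7% of gamma delta cells.

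The 108 lymphocytes of DTR were set against the 41 of WT, a comparison in which depletion cannot be told apart from digestion time. The 1619 genes compared had at least 100 CPM and at least 10 carrying lymphocytes in the higher library. Of these, 44 (2.72%) were at least 2-fold higher in DTR and 16 (0.988%) at least 2-fold lower, so that 3.71% differed in either direction, with a median log2 ratio of −0.023. Without the 3 cells described above the numbers were 36 and 15. Mitochondrial genes aside, 19 of the 44 higher and 2 of the 16 lower genes had a higher CPM in tenocyte-marked cells of the higher library, so that free RNA could set them. The genes with the highest lower bound began with 4 haemoglobin genes, Hbb-bs, Hba-a2, Hba-a1 and Hbb-bt, of whose UMIs 98.0% to 99.3% came from 1 cell. Cd74, the MHC class II invariant chain, was 42.1 times (25.8 to 73.8) higher, but without the 3 cells its log2 ratio was −0.95. Without the 3 cells the log2 ratios of the haemoglobin genes were 1.96 to 4.74. The remaining genes of the 10 were Ccl5, Fcer1g, Klrc1, Klrc2 and Zeb2. Ccl5 stood at 372 CPM in WT and 1314 CPM in DTR, a ratio of 3.53 (2.99 to 4.20). It was carried by 4 of 41 and 18 of 108 cells. In WT 144 of its 156 UMIs were in 1 cell, and in DTR 931 of 1238 were in 7 cells without a CD3 UMI. The log2 ratio of Ccl5 was 1.82 over all lymphocytes, 5.07 without the highest cell of each library and 3.55 in the CD3 route, so its size rests on that cell while its direction does not. Fcer1g had 2 UMIs in 1 cell of WT and 109 UMIs in 11 cells of DTR, a ratio of 24.3 (6.56 to 203), and its log2 ratio of 4.60 was 4.01 without the 3 cells. The inhibitory receptor gene Klrc1 (NKG2A) was 6.50 times (3.43 to 13.8) higher and its paralog Klrc2 5.24 times (2.66 to 11.8), although reads of this similar pair can be misassigned. Zeb2, a transcription factor of effector lymphocytes, was 10.9 times (4.57 to 34.3) higher, carried by 3 of 41 and 35 of 108 cells, and its log2 ratio of 3.45 was 3.05 without the 3 cells.

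Among genes lower in DTR, Gata3 stood at 0.386 times WT, as given above. In lymphocytes of the CD3 route its log2 ratio was −0.59, under 2-fold. Xist stood at 0.452 times (0.379 to 0.539), and 75.6% of the lymphocytes of WT but 36.1% of those of DTR had Xist without a Y-linked UMI. Ifi27l2a, an interferon-induced gene, stood at 0.352 times (0.265 to 0.468), with 67.8% of the WT UMIs in 1 cell, and without the highest cell of each library its log2 ratio was −0.38, under 2-fold. Tmem176b was 0.435 times (0.337 to 0.560) the WT level, Serpinb1a, an inhibitor of granule proteases, 0.496 times (0.416 to 0.592), and Hilpda, a lipid droplet protein, 0.524 times (0.435 to 0.632). In the CD3 route the log2 ratios of Serpinb1a and Hilpda were −0.046 and 0.033, and without its highest cells that of Serpinb1a was −0.67. Hist1h2bc, Exosc8, Dleu2 and Mettl23 made up the rest, at 0.339 to 0.422 times WT, and in the CD3 route Hist1h2bc stood at a log2 ratio of 0.030.

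The lymphocytes of B6 were set against the same WT cells, so that both comparisons share them. Of 1582 genes, 65 (4.11%) were at least 2-fold higher and 65 (4.11%) at least 2-fold lower, so that 8.22% differed in either direction, with a median log2 ratio of −0.12. Scaling by TMM factors (trimmed mean of M values, which sets aside the most extreme genes) changed this split to 122 higher and 29 lower, since it shifted every log2 ratio by 0.22 to a median of 0.11. Mitochondrial genes aside, 9 of the higher and 9 of the lower genes had a higher CPM in tenocyte-marked cells of the higher library. Among those lower, Cd28 stood at 675 CPM in WT and 200 CPM in B6, a ratio of 0.297 (0.230 to 0.379), Cd5 at 0.110 times (0.0340 to 0.275) and Cd6 at 0.194 times (0.0876 to 0.386). In the CD3 route their log2 ratios were −1.60, −2.78 and −1.96, so that they were low there too. Klf2, which keeps lymphocytes recirculating, stood at 0.278 times (0.177 to 0.423) and the quiescence gene Slfn2 at 0.339 times (0.245 to 0.464). Rgs10, Fam3c, Hnrnpr and the predicted gene Gm8369 stood at 0.0604 to 0.272 times, and Ifi27l2a at 0.326 times. Without the highest cell of each library the log2 ratio of Ifi27l2a was −1.90, and with no upper limit on genes per cell it was −0.61, under 2-fold.

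Among genes higher in B6, Areg stood at 26.2 and 137 CPM, a ratio of 5.21 with a lower bound of 2.71, Tnfsf8 (CD30 ligand) at 165 and 708 CPM, a ratio of 4.31 (3.31 to 5.68), and the homeodomain gene Hopx at 122 and 716 CPM, a ratio of 5.89 (4.36 to 8.08). Furin, a protein-processing enzyme, was 3.06 times (2.54 to 3.70) higher. These values go together with the larger number of cells without CD3 in B6, whose part in them was not tested further. In the CD3 route the log2 ratio was −0.53 for Tnfsf8, −0.20 for Hopx and 0.33 for Furin. Among cells with any CD3 UMI, Tnfsf8 stood at 198 CPM in WT and 327 CPM in B6, so that its direction turned with the CD3 limit. In the same cells Areg was carried by 0 of 35 in WT and 3 of 23 in B6. Tox, a transcription factor of innate lymphoid and chronically stimulated T cells, was 5.48 times (2.67 to 12.7) higher, with carriers of 8 of 41 and 22 of 37, and Prr7 4.15 times (2.64 to 6.78). Hist1h2ap was 64.5 times (32.5 to 150.3) higher with 59.5% of its UMIs in 1 cell, Hist1h4h had 55.6% in 1 cell, and Hist1h4d was 3.87 times (2.47 to 6.27) higher. These 3 belong to families of near-identical histone genes between which reads can be misassigned, and they are uncertain.

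**Figure D4:**
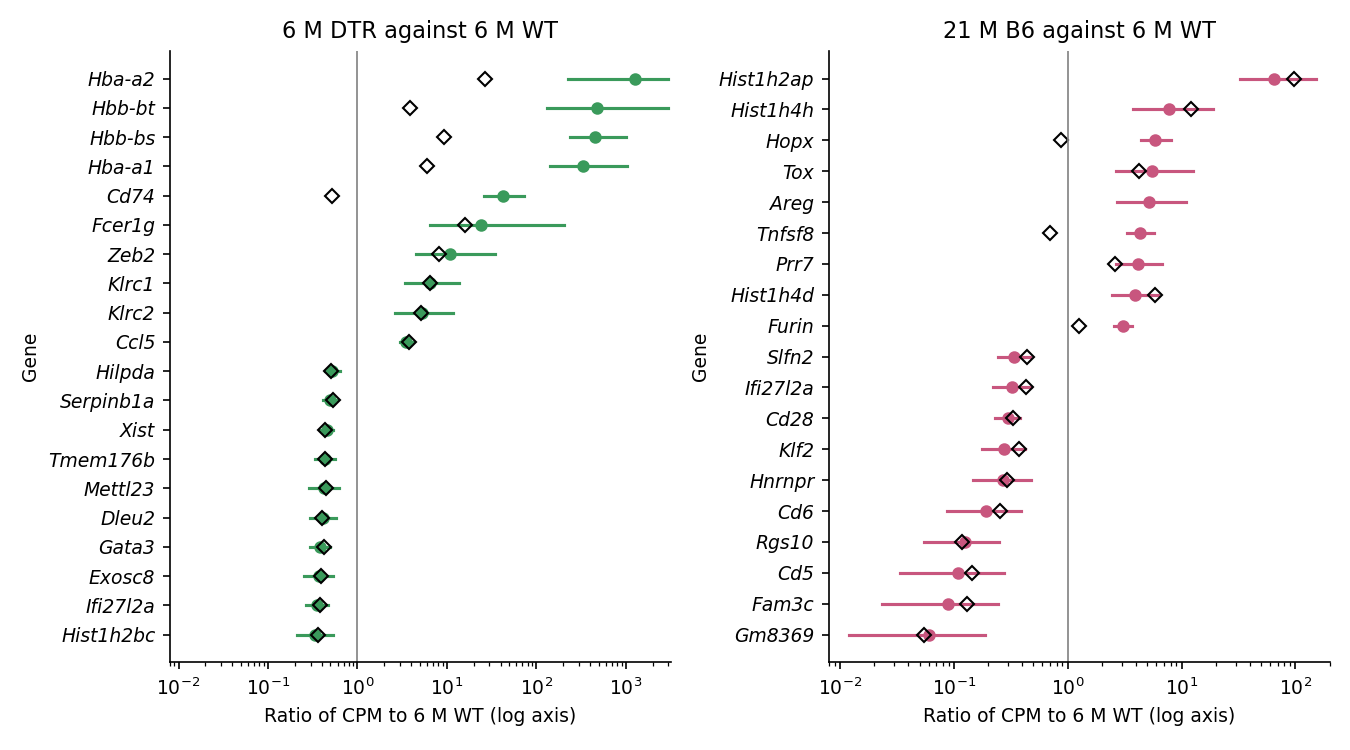
Filled points give the ratio of CPM in the lymphocytes of DTR (left) and B6 (right) to WT on a log axis, with exact 95% counting intervals as lines that are cut at the edge of the axis for Hba-a2 and Hbb-bt. Open diamonds give the ratio without the 3 unusual cells (left) or in the CD3 route (right, absent for Areg). The diamonds of Cd74, Hopx and Tnfsf8 lie on the other side of 1.

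Groups of genes were then counted beside the shares of all compared genes. These were 2.72% higher and 0.988% lower in DTR, and 4.11% higher and 4.11% lower in B6. Of 18 T cell receptor and CD3 genes, 16 were measured, and in DTR none differed 2-fold (median log2 ratio 0.07), while in B6 6 were at least 2-fold lower and 0 higher (median −0.59). Besides Cd28, Cd5 and Cd6 these were Trac at 0.415 times (0.292 to 0.582), the adhesion receptor Cd2 at 0.497 times (0.364 to 0.674) and the kinase Lck at 0.384 times (0.220 to 0.646). Among cells with any CD3 UMI, Trac stood at 341 and 175 CPM in WT and B6, Cd2 at 375 and 238 CPM and Lck at 152 and 74.3 CPM, so that Trac and Cd2 were under 2-fold there, and the TMM shift also takes Cd2 under 2-fold. The median was −0.33 in the CD3 route and −0.37 with TMM scaling. The CD3 genes in this list were used in the choice of cells. Of 12 type 2 genes, 4 were measured in DTR, with Areg higher and Gata3 lower, and 6 in B6, where Gata3, Il5 and Areg were higher (median 0.95). That median was 0.38 over the 3 genes measured in the CD3 route, and −0.39 with a mitochondrial limit of 5%, which left 3 lymphocytes in B6. Among 18 lymphocyte cytokines, 5 were measured in B6 and Il5, Tnfsf8 and Areg were higher, and the median was 1.26 among all lymphocytes and −0.013 in the CD3 route. Of 8 type 1 genes, 4 were measured in DTR and Ccl5 was higher, and in B6 Stat4, which signals from the interleukin 12 receptor, was higher at 2.03 times (1.35 to 3.09). The chemokine Ccl4 was higher in DTR as well, at 3.28 times (2.08 to 5.46), carried by 2 of 41 and 12 of 108 cells. Of 10 immediate early genes, 8 were measured, and in DTR the transcription factor genes Atf3 and Fosb and the phosphatase gene Dusp1 were higher, at 2.35 (1.61 to 3.52), 2.17 (1.495 to 3.24) and 2.003 times (1.502 to 2.71), with a median of 0.59. In tenocyte-marked cells of DTR these 3 genes stood at 973, 831 and 518 CPM, above the 185, 176 and 277 CPM of the lymphocytes. In B6 only Nr4a1 was higher, at 3.23 times (2.17 to 4.93).

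None of the 5 measured MHC class I genes differed 2-fold in either library (medians −0.06 and 0.26), and none of 6 heat shock genes (0.10 and 0.22), where 3.71% and 8.22% of all genes did, so that 0 of so few genes is no result about them. Of naive and recirculating genes 6 of 10 were measured, with none past 2-fold in DTR (median −0.68) and Klf2 alone in B6 (median −0.53). Of tissue residence genes, 5 and 4 were measured, and Nr4a1 in B6 was the 1 past 2-fold. In the regulatory T cell list 5 of 12 genes were measured, and 1, the costimulatory receptor Tnfrsf9, was higher in B6 at 2.91 times (2.02 to 4.28). Cell cycle genes gave 0 of 4 in DTR and 2 of 5 in B6, where Top2a was 3.62 times (2.12 to 6.48) and Stmn1 2.28 times (1.66 to 3.14) higher, with Top2a in 10 and 11 cells. Of the receptors that share the common gamma chain, Il21r was higher in DTR at 3.35 times (2.01 to 5.93), carried by 13 of 41 and 49 of 108 cells, and Il4ra in B6 at 2.05 times (1.26 to 3.41). Of 12 interferon response genes 2 were measured, with Ifi27l2a lower in both libraries, subject to the values above, and Ly6a lower in B6. None of 4 measured chemokine receptors of 15, and not the 1 measured type 3 gene of 8, differed 2-fold in either library. Of 16 NK genes 2 were measured in DTR, with Fcer1g higher, and 1 in B6, with none past 2-fold. Ctla4, below the level set for the comparison, had 27, 88 and 2 UMIs in 11, 33 and 1 cells of WT, DTR and B6.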

How the data were processed

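Single-cell libraries were prepared by the authors with 10x Chromium 3′ v3 chemistry, and the UMI counts per gene and barcode were deposited by the authors as 3 raw count matrices of 32285 features, with no normalization. The matrix headers name Cell Ranger 6.0.1, whereas the submitters' processing notes name Cell Ranger 2.1.1, and the genome build is not given in the sources used here. The libraries held 148149903, 123918145 and 92707026 UMIs in 15536, 16099 and 12273 barcodes for WT, DTR and B6.

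Cells and lymphocytes were chosen by the count limits given above with Python 3.11.15, numpy 2.4.6, scipy 1.17.1 and pandas 2.3.3, and plots were drawn with matplotlib 3.10.9. The members and gene lists were chosen with earlier results of these data known. UMIs were summed over lymphocytes of a library and divided by their total (CPM). Ratios have exact conditional intervals from both counts and shares Clopper-Pearson intervals, both at 95%, which cover counting error alone. No test was run, as each group was 1 library. A share of 0 allows 3 cells. Genes compared had at least 100 CPM and 10 carrying cells in the higher library, and called means at least 2-fold. The ratio calculation was tested on simulated counts drawn at random for each gene on its own. These counts hold no UMIs gathered in single cells, so they cannot show how the intervals behave for such genes.

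Genes named by rank were, per comparison, the 10 with the highest lower bound and the 10 with the lowest upper bound of the ratio, leaving out mitochondrial genes and genes with a higher CPM in tenocyte-marked cells of the higher library (275 of 1607 and 259 of 1569 genes), which free RNA could set. A few genes under these rules, 1 of them named by rank, are not reported here. The other genes named come from 32 lists, of which 1 gene was not among the features. Thinning drew 2000 UMIs per cell, and no lymphocyte had fewer. Scrublet (scanpy 1.11.5) called 1, 6 and 1 of all kept cells doublets, which is too few to have worked, so doublets were not removed. Alternatives covered the CPM floor, TMM scaling (edgeR 4.0.16, R 4.3.3), mean CPM per cell, mitochondrial and gene limits, thresholds of the choice, the CD3 route, each gene without its highest cell, cells with Xist and no Y-linked UMI, and 3 unusual cells left out. The last 3 were added after the data were seen.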

Additional observations from a re-analysis of the deposited data

Results flagged for a closer look

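Barcodes with over 10% mitochondrial UMIs were not used in the comparisons, yet some matched the lymphocyte limits in every other respect. In DTR they were 4 of 6943 such barcodes, or 0.0576% (0.0157 to 0.147), and in B6 9 of 6932, or 0.130% (0.0594 to 0.246), against 1 of 4284, or 0.0233%, in WT. They stand here because both shares lie above that of the WT control. The intervals of all 3 overlap, and the difference was not tested.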

How the results depend on the processing

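No paired analysis was possible because each group had 1 library. For the same reason no library could be left out. Scrublet called no lymphocyte, so leaving out its calls gave no separate values. The share of kept cells that were lymphocytes stayed above WT in DTR under the alternatives for cell limits, route, Xist cells and unusual cells, with log2 ratios of 1.58 to 1.92, whereas that of B6 ranged from −1.63 to 1.19. Shares of other denominators and of cells with a Y-linked UMI stand in the report and are not in this range. The cause of the changes below was not tested.

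With a 5% mitochondrial limit, which left 3 lymphocytes in B6, its share was 0.129% and its log2 ratio to WT −1.63, Cd4 and Foxp3 were carried by 0%, 0 genes were higher and 245 lower, and Furin stood at −0.34, Areg at 0.40 and Tox at 0.76, and the list medians were −0.39 for type 2, −1.48 for immediate early and −0.47 for heat shock genes. In the CD3 route the share was 0.438% in B6 and 1.33% in DTR, Gata3 was carried by 47.6% in B6 and Gzma by 0% in WT and DTR, and log2 ratios were 0.030 for Hist1h2bc (DTR), −0.20 for Hopx, −0.53 for Tnfsf8 and −0.013 for the cytokine list (B6). Among cells with Xist and no Y-linked UMI the share was 1.39% in B6, Foxp3 was carried by 0% in DTR and Gzma by 0% in WT, Cd74 stood at −2.01, Xist at 0.040 and the cell cycle median at −0.77 in DTR, and 112 genes were higher and 52 lower in DTR and 106 and 110 in B6. Without the 3 unusual cells Cd74 stood at −0.95.

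After thinning, Cd4 was carried by 9.76% in WT and 28.7% in DTR, Gata3 by 31.7%, 14.8% and 51.4% in WT, DTR and B6, Cd8a and Gzma by 0% in WT and Foxp3 by 0% in B6. With at least 2 UMIs Cd4 was carried by 14.6%, 30.6% and 0%, and Gata3 by 36.6% in WT and 17.6% in DTR. A threshold of 5 UMIs in the choice gave 0% for Cd8a in WT.

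Genes higher and lower numbered 112 and 56 in DTR and 116 and 255 in B6 with a floor of 50 CPM, 19 and 6, and 38 and 14, with 200 CPM, and 607 and 129, and 189 and 525, with none. TMM scaling gave 122 and 29 in B6. Genes lower in DTR numbered 10 without each gene's highest cell and 25 with no upper gene limit. Of the other alternatives, 224 values for shares and 46 for counts of genes stayed within their limits. For single genes and lists, 612 and 346 values did. Opposite in sign to the reported value were 8 values for genes and 35 for list medians, of which 30 for lists had moved by no more than 1.5-fold. Depth limits what can be said of Cd8a, Foxp3, Gzma, Ncr1 and Ifng, which had 0 to 14 carrying cells per library.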

Other observations

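Calca, the gene of the neuropeptide CGRP and a gene picked after its values were seen, was carried by 9 of 41 lymphocytes in WT with 91 UMIs, 7 of 108 in DTR with 44 UMIs and 15 of 37 in B6 with 260 UMIs. The highest cell of WT held 44 of the 91 UMIs. Tenocyte genes were detected in 17, 36 and 2 lymphocytes and C1q genes in 1, 12 and 3, within the limits of the choice.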
